A study of Mus musculus with 6 samples.

Results

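The proteasome is the large protease complex that degrades most ubiquitin-tagged proteins in the cell, and its genes carry the mouse symbols Psma to Psmg. The 48 genes described here are every line of the deposited liver mRNA table whose symbol is Psm, then a letter from a to g, then digits only, out of 22481 symbols in all. They divide into 8 alpha subunits and 7 constitutive beta subunits of the 20S core, and 4 other beta subunits. These 4 are the inducible Psmb8, Psmb9 and Psmb10, and Psmb11 of the thymus, which is grouped with them here. The rest are 6 ATPases and 11 non-ATPase subunits of the 19S regulatory particle, 7 assembly chaperones, and 5 genes for other activators and the core inhibitor PI31. Psmc3ip and Psme2b begin like members but go on with letters and were left out.

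RNA came from livers of male C57BL/6J mice, a common inbred laboratory strain, that were 10 weeks old. The fed group ate ad libitum and the fasted group had gone 16 h without food, with 3 libraries in each group and no other treatment named. Libraries were made from total RNA after removal of ribosomal RNA. As the RNA came from liver tissue, the values cover all its cell types together. The labels do not say that each library is a separate mouse and give no batch, so p-values here measure the spread between these libraries.

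The 20S core is a barrel of stacked rings: alpha subunits form the outer rings and hold the gate, and beta subunits form the inner rings, where 3 of them, encoded by Psmb5, Psmb6 and Psmb7, cut peptide bonds. Interferon signalling can replace these catalytic subunits with inducible counterparts, which gives the immunoproteasome and changes the peptides offered to T cells. The 19S particle caps the barrel, recognises ubiquitin chains, removes them and feeds the unfolded protein inward with the ATPase ring. In liver the complex works beside autophagy in the turnover of protein.

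Psmd9 was the only gene of the family that passed the test between fasted and fed livers. Of the 31 tested genes of the constitutive 26S complex, none of which passed, 29 had an estimate above 0, with a median log2 difference of 0.29. At an unadjusted p under 0.05 in edgeR 9 of the 31 were higher, against 11.0% of all genes. Of the 48 members 46 had enough counts to be tested, and 35 of the 46 had an estimate above 0, against 48.7% of all 11633 genes tested; the number was 33 with upper-quartile scaling and 30 on the FPKM scale. The median log2 difference between fasted and fed livers was 0.21 over the 46 members and -0.02 over all genes. Psmd9, an assembly chaperone of the 19S base, rose 2.25-fold, and no member passed as lower. The 3 inducible subunits Psmb8, Psmb9 and Psmb10 had estimates below 0 and did not pass.

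The test was edgeR's quasi-likelihood test with Benjamini-Hochberg adjustment over all 11633 genes, called edgeR adjusted p in what follows, at a threshold of 0.05. Higher genes made up 1.41% of all genes tested and lower genes 1.11%, so the single call among 46 members lies near that background. At an unadjusted p under 0.05 there were 11 members with higher and 2 with lower estimates in fasted livers, where all genes gave 11.0% and 10.8%. The 3 fasted values all lay above the 3 fed values for 14 members and below them for 2, against 15.3% and 13.7% of all genes. DESeq2 called 5 members higher, namely Psma7, Psmc1, Psmd3, Psmd9 and Psmd11, against a background of 4.43%, and none lower. Limma on log2(FPKM + 1) called Psmd9 alone, where 0.918% of all genes were called higher.

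In all, 293 genes were called, 164 of them higher, which is 56.0% of the calls; on the FPKM values limma called 207 genes, with 45.4% higher. The count was 754 without fed library 3 and 3 without fasted library 2. Library totals ran from 12289648 to 14771816 counts in the fed group and from 11158002 to 11639386 in the fasted group. Members that were tested held between 32 counts, for Psmg4 in fasted library 2, and 2647 counts, for Psmd2 in fed library 2. The hepatocyte markers fixed for the tissue check were all detected, apart from a 0 for Alb, the albumin gene, in fed library 2, which is doubtful because it may be a failed estimate. With estimates rounded to 3 decimals, 6 of these 8 markers lay above 0, Ttr lay below it and Serpina1c stood at 0. The median log2 difference of the 8 was 0.67. Their summed level, Alb included, was 71042, 21684 and 51543 CPM in fed and 101830, 94416 and 85170 CPM in fasted libraries. Alb alone had 50409, 0 and 33310 CPM in fed and 72565, 62890 and 50246 CPM in fasted libraries. The low sum of fed library 2 thus rests on the doubtful 0. EdgeR called 0 of the 8 markers, with 4 higher at an unadjusted p under 0.05, against 11.0% of all genes. DESeq2 called 5 of them higher, against 4.43%, and limma on FPKM called Tat alone, as higher, against 0.918%. Their part in the higher member values was not tested. Fed library 3 had the lowest CPM of all 6 libraries for 29 of the 46 members, and among the 31 tested genes of the constitutive 26S complex it was the lowest for 24. No such count was made over all genes. The 10 most abundant genes held 31.4% of the counts in fed library 3 and 17.3% to 22.9% in the other libraries. The part of this in the member values was not tested. In bulk tissue a smaller share of a cell type and less RNA per cell cannot be told apart.

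Levels can be compared between genes on the FPKM scale, which corrects for transcript length. Psmb6 had the highest mean level of the family, with 148, 133 and 117 FPKM in fed libraries 1, 2 and 3 and 167, 124 and 163 FPKM in fasted libraries 1, 2 and 3. The mean FPKM of the constitutive beta subunits ran from 63.2 for Psmb2 to 142 for Psmb6, a 2.25-fold span, although the complex holds these subunits in equal number. The span was 2.64-fold over the 7 tested alpha subunits, 1.74-fold over the ATPases and 2.52-fold over the non-ATPase subunits. Median mean levels were 90.7 FPKM for the alpha subunits, 114 for the beta subunits, 62.3 for the ATPases and 47.4 for the non-ATPase subunits. The chaperones had a median of 10.4 FPKM and the inducible subunits 14.6 FPKM. Across the 31 constitutive genes the order of levels was nearly the same in both groups, with a Spearman rho of 0.970 between fed and fasted means; this is a description over genes of the same libraries.

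**Figure D1:**
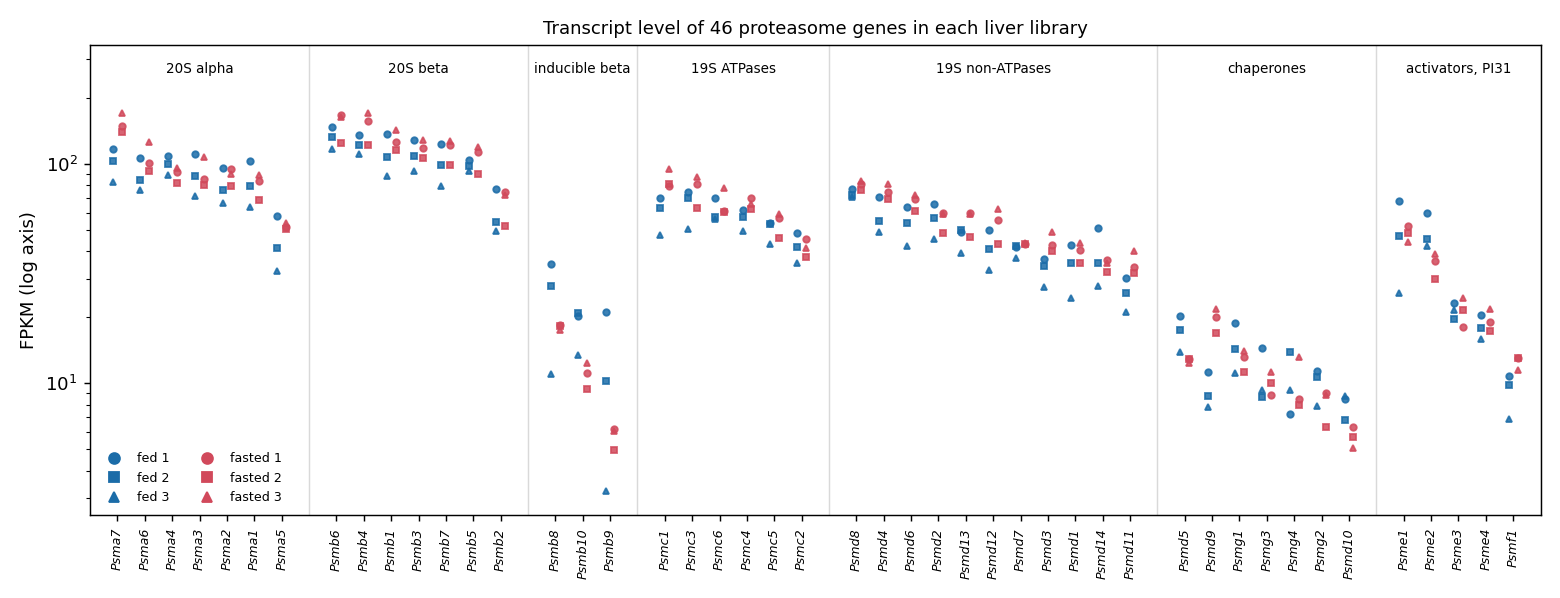
FPKM on a log axis of the 46 tested proteasome genes by class, with 1 point for each of the 3 fed (blue) and 3 fasted (red) libraries. Core subunits lie highest, with Psmb6 at a mean of 142 FPKM, and chaperones lowest, with Psmd10 at 6.84 FPKM.

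Among the alpha subunits, which form the gated outer rings, Psma7 had the widest separation between the groups. Psma7 stood at 88.5, 80.7 and 71.8 CPM (counts scaled to a common library total) in fed libraries 1, 2 and 3; fasted libraries 1, 2 and 3 held 129, 115 and 140 CPM. Every fasted value lay above every fed value, but the gene did not pass (log2 fold change 0.67, SE 0.155, edgeR adjusted p = 0.0711). It also had the highest mean level of the class, 127 FPKM. Psma6 had 93.8, 78.1 and 78.0 CPM in fed and 104, 91.3 and 121 CPM in fasted libraries, with overlapping groups (log2 fold change 0.34, SE 0.166, edgeR adjusted p = 0.285). Psma5, the least abundant tested alpha subunit at 48.0 FPKM, had 62.5, 47.0 and 41.0 CPM in fed and 65.4, 62.4 and 63.8 CPM in fasted libraries. Only fed library 1 reached the fasted values of Psma5 (log2 fold change 0.35, SE 0.177, edgeR adjusted p = 0.304). Psma1, Psma2, Psma3 and Psma4 overlapped between the groups, with log2 fold changes of 0.07, 0.24, 0.09 and -0.06, and Psma1 had the opposite sign on the FPKM scale. Psma8, an alpha subunit of the testis, held 6, 7 and 7 counts in fed and 6, 0 and 6 counts in fasted libraries and was not tested.

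All 7 constitutive beta subunits had estimates above 0, between 0.19 and 0.37 on the log2 scale, and none passed in edgeR, even unadjusted, or in DESeq2 or limma on FPKM. Psmb5 encodes the subunit with chymotrypsin-like activity, the target of the drug bortezomib. Its level was 73.6, 72.7 and 76.8 CPM in fed and 93.8, 72.6 and 92.7 CPM in fasted libraries, and fasted library 2 lay at the fed level (log2 fold change 0.22, SE 0.151, edgeR adjusted p = 0.450). Psmb6, with caspase-like activity, had 93.6, 87.9 and 85.6 CPM in fed and 123, 89.2 and 112 CPM in fasted libraries (log2 fold change 0.28, SE 0.163, edgeR adjusted p = 0.363). Psmb7, with trypsin-like activity, had 123, 104 and 92.4 CPM in fed and 143, 113 and 134 CPM in fasted libraries (log2 fold change 0.29, SE 0.174, edgeR adjusted p = 0.378). For both genes fasted library 2 fell inside the fed range.

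The non-catalytic beta subunits close the inner rings. Psmb4 had the lowest p of the class, with 118, 112 and 110 CPM in fed and 158, 121 and 159 CPM in fasted libraries. Its groups did not overlap, and it did not pass (log2 fold change 0.37, SE 0.162, edgeR adjusted p = 0.243). Psmb1 had 120, 98.8 and 89.5 CPM in fed and 128, 115 and 137 CPM in fasted libraries (log2 fold change 0.30, SE 0.167, edgeR adjusted p = 0.341). Psmb2, the least abundant, had 53.4, 39.7 and 39.97 CPM in fed and 60.3, 41.2 and 54.2 CPM in fasted libraries (log2 fold change 0.23, SE 0.193, edgeR adjusted p = 0.534). Both overlapped, as did Psmb3, whose log2 fold change was 0.19.

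Genes of the proteasome are known targets of the factor Nfe2l1, also called Nrf1, which acts through antioxidant response elements in their promoters. The windows from 250 bases before each RefSeq gene start to the base before it were searched on both strands for the core of this element, TGACNNNGC, where N is any base. It occurred in 10.2% of 32851 mouse windows and in 5 of the 40 members with a window, namely Psmb5, Psmb6, Psmc6, Psmd9 and Psmd12. The stretch before Psmb5 is shown because it is the main catalytic gene and holds the element from -47 to -39, counted back from the gene start. It lies at chr14:54618023-54618245 on the minus strand (RefSeq, GRCm38.p6), from -250 to -28, with the match in capitals.
Psmb5: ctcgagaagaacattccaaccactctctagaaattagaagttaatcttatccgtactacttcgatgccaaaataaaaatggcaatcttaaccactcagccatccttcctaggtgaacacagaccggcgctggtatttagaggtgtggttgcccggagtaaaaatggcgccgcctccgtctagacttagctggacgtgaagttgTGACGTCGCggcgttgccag
A match is a string in this window and not a measured binding site, and Psmb5 itself did not pass.

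The ATPases form the ring that unfolds substrates and threads them into the core. Psmc1, whose product helps to open the gate of the core, had 95.4, 90.0 and 75.2 CPM in fed and 127, 127 and 142 CPM in fasted libraries. The groups lay well apart, and the gene did not pass (log2 fold change 0.60, SE 0.154, edgeR adjusted p = 0.0911). Psmc1 was also the most abundant of the class at 72.6 FPKM. Psmc4 had 76.0, 75.1 and 72.5 CPM in fed and 100, 89.2 and 90.5 CPM in fasted libraries, again without overlap (log2 fold change 0.32, SE 0.129, edgeR adjusted p = 0.205). Psmc3 had 108, 106 and 85.9 CPM in fed and 136, 106 and 138 CPM in fasted libraries, and fasted library 2 lay inside the fed range (log2 fold change 0.34, SE 0.174, edgeR adjusted p = 0.305). Psmc2, the least abundant at 41.7 FPKM, had 79.4, 71.6 and 67.8 CPM in fed and 87.4, 70.3 and 74.4 CPM in fasted libraries. Its groups overlapped (log2 fold change 0.09, SE 0.148, edgeR adjusted p = 0.772). All 6 ATPases had an estimate above 0, though Psmc2 changed sign on the FPKM scale, and Psmc5 and Psmc6 overlapped with log2 fold changes of 0.20 and 0.21.

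The non-ATPase subunits build the base and lid of the cap and hold its ubiquitin receptors and its deubiquitinase. Of the 11 genes 10 had an estimate above 0, among which Psmd2 changed sign on the FPKM scale. In 8 every fasted value exceeded every fed value, against 15.3% of all genes. None passed in edgeR or in limma on FPKM. At an unadjusted p under 0.05 in edgeR 6 were higher, against 11.0% of all genes. DESeq2 called Psmd3 and Psmd11 higher, against 4.43%. Psmd11, a lid subunit that clamps the cap to the core, had 69.5, 60.2 and 56.3 CPM in fed and 90.1, 84.6 and 96.6 CPM in fasted libraries (log2 fold change 0.54, SE 0.144, edgeR adjusted p = 0.0952). Psmd3, a lid scaffold subunit, had 73.8, 72.2 and 64.0 CPM in fed and 100, 92.1 and 107 CPM in fasted libraries (log2 fold change 0.51, SE 0.139, edgeR adjusted p = 0.0990). Psmd4, a ubiquitin receptor, had 81.6, 66.9 and 66.2 CPM in fed and 101, 91.9 and 101 CPM in fasted libraries (log2 fold change 0.45, SE 0.147, edgeR adjusted p = 0.142). In these 3 genes the highest fed value came from library 1 and stayed below the lowest fasted value.

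Psmd8, a lid subunit and the most abundant of the class at 76.8 FPKM, had 95.4, 93.2 and 102 CPM in fed and 118, 107 and 112 CPM in fasted libraries (log2 fold change 0.22, SE 0.133, edgeR adjusted p = 0.388). Psmd6, Psmd7, Psmd12 and Psmd13, also subunits of the lid, had groups that did not overlap, with log2 fold changes of 0.42, 0.19, 0.47 and 0.36. Psmd1 and Psmd2, the large scaffolds of the base, overlapped, with 0.33 and 0.08. Psmd14, the deubiquitinase that releases ubiquitin chains, had 70.5, 50.9 and 44.5 CPM in fed and 57.6, 50.7 and 53.0 CPM in fasted libraries. Its fasted values lay wholly within the fed range (log2 fold change -0.04, SE 0.190, edgeR adjusted p = 0.922).

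**Figure D2:**
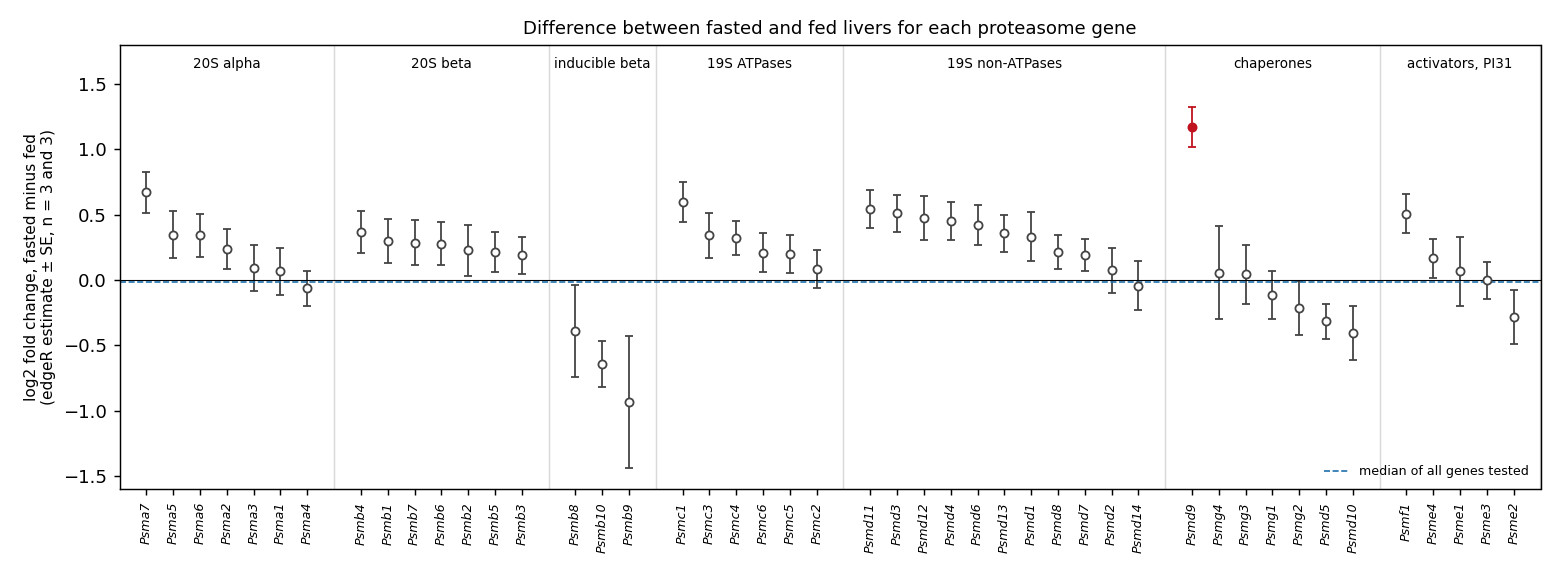
Log2 fold change, fasted minus fed, of each tested proteasome gene with its standard error, from 3 fed and 3 fasted libraries; the dashed line is the median of all genes tested (-0.02). Psmd9 (filled, red) is the only gene past an adjusted p of 0.05; most points of the core and cap lie above 0 and the 3 inducible subunits below it.

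The assembly chaperones bind subunits during assembly and are not part of the finished complex. Psmd9, Psmd5 and Psmd10 serve the ATPase ring, and Psmg1 to Psmg4 serve the alpha ring. Psmd9 had 27.8, 22.5 and 22.4 CPM in fed and 57.5, 47.7 and 58.5 CPM in fasted libraries, from 267 to 394 counts per fed library and 522 to 676 per fasted library. The lowest fasted value was well above the highest fed value. The means were 24.2 ± 3.08 CPM and 54.6 ± 5.95 CPM (SD, n = 3 each), a log2 fold change of 1.17 with SE 0.151 (edgeR adjusted p = 0.0171). On the FPKM scale Psmd9 stood at 11.3, 8.72 and 7.81 in fed libraries and between 16.9 and 21.8 in fasted libraries.

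The direction of Psmd9 was the same in all 18 alternatives, with log2 fold changes from 1.01 to 1.26, but its call was not. Over the alternatives its adjusted p ran from 1.003e-06 with DESeq2 to 0.106 in edgeR without fed library 2. It was 0.0796, 0.0779 and 0.0894 in edgeR without fasted library 1, 2 and 3, 0.0559 in limma with an FPKM pseudocount of 0.1, and 0.0694 in limma without a filter.

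The Psmd9 locus bears on what its counts hold. In GENCODE M21 on GRCm38 the gene (ENSMUSG00000029440) spans chr5:123169413-123250131 on the plus strand, because a long processed transcript starts far upstream, while the protein-coding transcript Psmd9-201 starts at 123228190. Hpd, a tyrosine breakdown enzyme abundant in liver, lies inside that span on the opposite strand, at chr5:123171807-123182727. Hpd, chosen here for its position, had 1215, 912 and 417 CPM in fed and 2306, 2173 and 3197 CPM in fasted libraries (log2 fold change 1.59, SE 0.411, edgeR adjusted p = 0.0916). The counts of Hpd were 18.6 to 54.7 times those of Psmd9, with the lowest ratio in fed library 3. Within the fed group Hpd differed 2.91-fold between libraries 1 and 3 and Psmd9 1.24-fold. In GENCODE M21 no exon of Hpd overlaps an exon of Psmd9. The only gene whose exons overlap those of Psmd9 is the long noncoding RNA Gm26745, at chr5:123047373-123230871 on the opposite strand. The locus that the authors deposited for Psmd9 is wider than the gene, chr5:123047372-123250131, and takes in both Gm26745 and Hpd whole. The library kit marks strand. Whether the authors counted by strand could not be learned from the labels or headers, and the part of these neighbours in the Psmd9 counts was not tested.

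The window before the start of the protein-coding transcript of Psmd9 is shown because Psmd9 is the called member. This window holds the antioxidant response core from -31 to -23. The window lies at chr5:123227940-123228189 on the plus strand (RefSeq, GRCm38.p6), with that match in capitals.
Psmd9: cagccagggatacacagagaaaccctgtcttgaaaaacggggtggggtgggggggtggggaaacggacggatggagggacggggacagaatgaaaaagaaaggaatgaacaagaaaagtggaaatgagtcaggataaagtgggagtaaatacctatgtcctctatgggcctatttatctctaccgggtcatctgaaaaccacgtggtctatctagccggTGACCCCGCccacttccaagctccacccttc
The same window holds the core of the interferon-stimulated response element from -159 to -150, a string found in 2.98% of all windows and in 3 of 40 members, the others being Psmb3 and Psmd4. Other strings were also counted. The CCAAT box, bound by NF-Y, occurred in 33.8% of all windows and 14 members, while the FOXO core GTAAACA and the cAMP response element TGACGTCA occurred in 3.17% and 1.55% of windows and in 0 members. No match says only that these letters are not in this window.

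None of the other chaperones passed in edgeR, DESeq2 or limma on FPKM. In edgeR 1 of them, Psmd5, was lower at an unadjusted p under 0.05, against 10.8% of all genes. Psmd5, the most abundant of the class at 15.0 FPKM, had 38.1, 33.1 and 30.6 CPM in fed and 28.3, 28.0 and 25.6 CPM in fasted libraries. Every fasted value was below every fed value, and the gene did not pass (log2 fold change -0.32, SE 0.133, edgeR adjusted p = 0.224). Psmd10, which encodes gankyrin, had 10.7, 9.07 and 12.9 CPM in fed and 9.42, 8.23 and 7.01 CPM in fasted libraries, with slight overlap (log2 fold change -0.41, SE 0.205, edgeR adjusted p = 0.2996). The 4 Psmg genes overlapped, with log2 fold changes of -0.12, -0.21, 0.04 and 0.06 for Psmg1, Psmg2, Psmg3 and Psmg4. Of these, Psmg3 and Psmg4 changed sign on the FPKM scale.

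**Figure D3:**
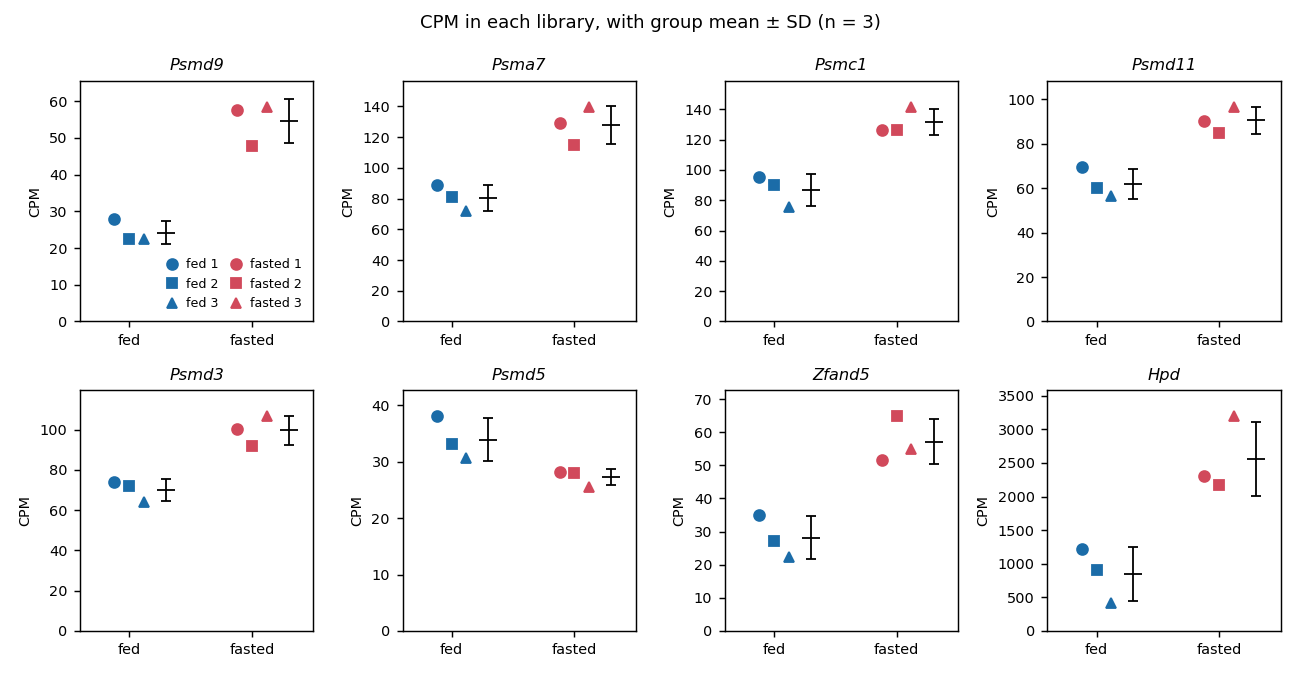
CPM in each library for 6 proteasome genes, for the proteasome-binding Zfand5, and for Hpd, which lies within the Psmd9 locus; horizontal marks with bars are group means ± SD (n = 3). Each gene shown has groups that do not overlap, with Psmd9 at 24.2 and 54.6 CPM in fed and fasted livers and Psmd5 the only one lower in fasted livers.

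The activators PA28 and PA200 are alternative caps that open the core without ubiquitin, and PI31 binds the core. Psmf1, which encodes PI31, had 20.95, 19.8 and 16.7 CPM in fed and 30.1, 27.3 and 24.4 CPM in fasted libraries. Its groups did not overlap, and it did not pass (log2 fold change 0.51, SE 0.150, edgeR adjusted p = 0.117). It was the least abundant of the class at 10.8 FPKM. Psme4, which encodes PA200, had 130, 112 and 113 CPM in fed and 135, 121 and 143 CPM in fasted libraries, with overlap (log2 fold change 0.17, SE 0.149, edgeR adjusted p = 0.552). Psme3, the nuclear PA28 gamma, had a fed mean of 53.4 ± 3.82 CPM and a fasted mean of 53.3 ± 6.48 CPM (SD, n = 3 each).

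Psme1 and Psme2 encode PA28 alpha and beta, which interferon induces. Psme1, the most abundant of the class at 47.5 FPKM, had 61.6, 46.1 and 29.0 CPM in fed and 54.5, 46.1 and 42.7 CPM in fasted libraries, so that the fasted values lay inside the fed range (log2 fold change 0.07, SE 0.265, edgeR adjusted p = 0.909). Psme2 had 36.4, 29.8 and 22.3 CPM in fed and 28.1, 21.1 and 23.7 CPM in fasted libraries, also with overlap (log2 fold change -0.28, SE 0.207, edgeR adjusted p = 0.473). The table also lists a near copy, Psme2b, so reads of this pair may be split between them. Both genes had their highest value in fed library 1.

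The inducible catalytic subunits had estimates below 0, and none passed in edgeR, DESeq2 or limma on FPKM. Psmb10 alone was lower at an unadjusted p under 0.05 in edgeR, against 10.8% of all genes. Psmb9, the counterpart of Psmb6, had 20.8, 12.9 and 4.20 CPM in fed and 7.09, 7.22 and 5.62 CPM in fasted libraries, with all fasted values between the fed extremes (log2 fold change -0.93, SE 0.503, edgeR adjusted p = 0.327). Psmb8, the counterpart of Psmb5, had 37.2, 28.7 and 12.8 CPM in fed and 20.6, 21.5 and 18.2 CPM in fasted libraries, with the same overlap (log2 fold change -0.39, SE 0.349, edgeR adjusted p = 0.556). Psmb10, the counterpart of Psmb7, had 22.6, 24.4 and 17.5 CPM in fed and 14.5, 11.98 and 15.0 CPM in fasted libraries. Its groups did not overlap, and it did not pass (log2 fold change -0.64, SE 0.176, edgeR adjusted p = 0.101). Psmb11, the catalytic subunit of the thymus, was at 0 counts in every library, where 3 counts would have been 0.203 to 0.269 CPM of the unscaled library totals.

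The fed libraries also lay apart from each other. The ratio of fed library 1 to fed library 3 was 4.96 for Psmb9, 2.92 for Psmb8 and 1.30 for Psmb10, against a median of 1.23 over the constitutive 26S genes and 1.002 over all genes tested. Without fed library 3, edgeR called Psmb8, Psmb9 and Psmb10 all lower, with log2 fold changes of -0.71, -1.34 and -0.76 and edgeR adjusted p of 0.0494, 0.0272 and 0.0354. In that fit 3.26% of all genes were called lower. Fed library 3 held the lowest fed value of all 3 genes, so leaving it out raises their fed means. Without fed library 1 the log2 fold changes of Psmb8, Psmb9 and Psmb10 were -0.07, -0.40 and -0.62, and none passed (edgeR adjusted p = 0.921, 0.631 and 0.130). Over all the alternatives the adjusted p of Psmb8 ran from 0.0494 to 0.921, that of Psmb9 from 0.0272 to 0.690 and that of Psmb10 from 0.0354 to 0.285.

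The make-up of each catalytic site can be read as the share of the inducible gene in the FPKM of its pair. For the caspase-like site the share of Psmb9 was 12.5%, 7.16% and 2.69% in fed and 3.56%, 3.86% and 3.56% in fasted libraries. For the trypsin-like site the share of Psmb10 was 14.2%, 17.4% and 14.5% in fed and 8.32%, 8.70% and 8.79% in fasted libraries, which is 15.4 ± 1.78% against 8.60 ± 0.248% (SD, n = 3 each). For the chymotrypsin-like site the share of Psmb8 was 25.1%, 22.0% and 10.5% in fed and 14.0%, 16.8% and 12.8% in fasted libraries. Only the share of Psmb10 kept the groups apart, and with 3 against 3 libraries no test of a single share was made. These shares are of transcripts and not of assembled subunits.

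**Figure D4:**
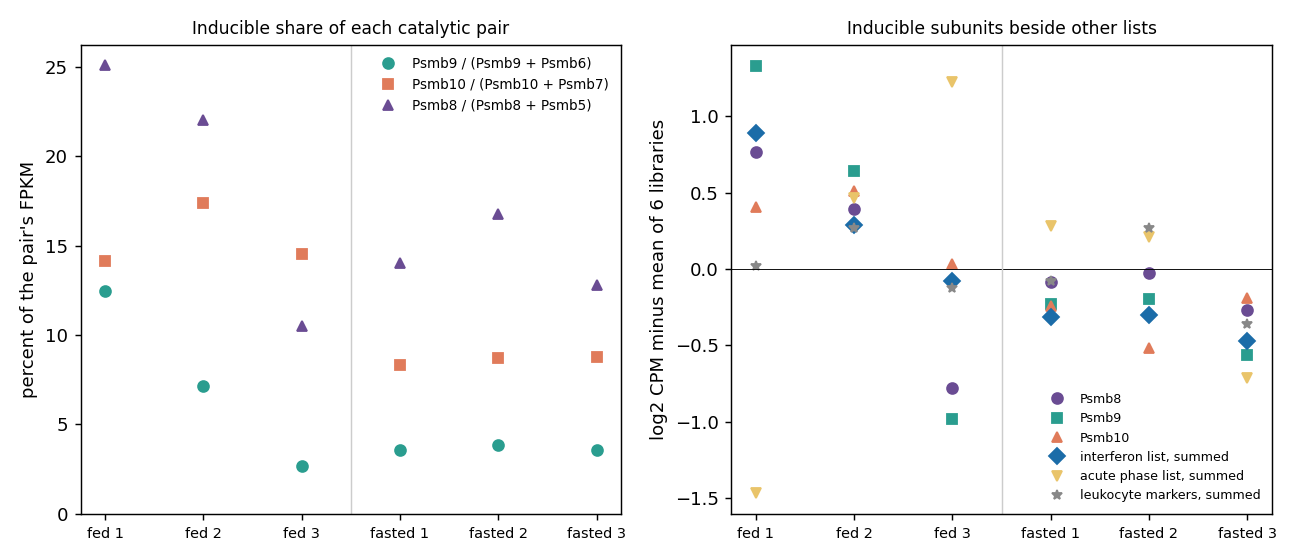
Left, percent of each catalytic pair's FPKM that came from the inducible gene, in each of the 6 libraries; right, log2 CPM minus the mean of the 6 libraries for the inducible genes and for the summed CPM of 3 other lists. Psmb10 lies at 14.2% to 17.4% in fed and 8.32% to 8.79% in fasted libraries, and Psmb8 and Psmb9 are lowest in fed library 3, where the acute phase sum is highest.

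Other lists are given beside the inducible subunits. Of 18 interferon response genes none was called in edgeR and all 18 had an estimate below 0, with a median log2 difference of -1.04. At an unadjusted p under 0.05 in edgeR 7 were lower, against 10.8% of all genes. DESeq2 called 3 of the 18 lower, namely Stat2, Isg15 and Iigp1, where 3.97% of all genes were called lower, and limma on FPKM called 0. With upper-quartile factors edgeR called Stat2 lower (edgeR adjusted p = 0.0424). Without fed library 3, the fit in which the inducible subunits were called, edgeR called 11 of the 18 lower, among them Stat2 and Isg15 (edgeR adjusted p = 0.0300 and 0.00628), against 3.26% of all genes. Fed library 3 held the lowest fed value for 17 of the 18, so leaving it out raises their fed means. Without fed library 1 Stat2 and Isg15 did not pass (edgeR adjusted p = 0.0639 and 0.223). The summed level of the 18 genes was 1386, 914 and 710 CPM in fed and 604, 608 and 540 CPM in fasted libraries, and none of the genes was at 0 throughout. Stat2, a transducer of interferon signals, had 67.4, 67.4 and 58.1 CPM in fed and 43.3, 31.8 and 38.9 CPM in fasted libraries (log2 fold change -0.76, SE 0.157, edgeR adjusted p = 0.0554). Isg15, a ubiquitin-like modifier, had a log2 fold change of -1.77 and Irf1, an activator of immunoproteasome genes, one of -0.18 (edgeR adjusted p = 0.148 and 0.697).

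The acute phase list, plasma proteins and other transcripts that liver makes in inflammation, was lowest in fed library 1 and highest in fed library 3, with sums of 48008, 182010 and 308650 CPM in fed and 160450, 152970 and 80713 CPM in fasted libraries. Of its 19 genes 17 had an estimate below 0 and 2 above it, where 48.7% of all genes were above 0. None was called in edgeR, DESeq2 or limma on FPKM. At an unadjusted p under 0.05 in edgeR 1 was lower, against 10.8% of all genes. The lowest p belonged to Steap4 and Saa3, with log2 fold changes of -2.30 and -3.38 (edgeR adjusted p = 0.156 and 0.305). Leukocyte markers summed to 832, 984 and 751 CPM in fed and 777, 988 and 639 CPM in fasted libraries; 16 of the 33 in the table were tested and 3 had no more than 3 counts in any library. The part of interferon response, inflammation or leukocyte content in the inducible subunits was not tested.

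Psmb9 shares its promoter region with Tap1, a peptide transporter of antigen presentation: the RefSeq starts lie 226 bases apart on opposite strands of chromosome 17 (GRCm38.p6), and exons of these genes overlap in GENCODE M21. Tap1 had 26.7, 21.9 and 11.6 CPM in fed and 11.2, 14.8 and 10.2 CPM in fasted libraries, with overlap (log2 fold change -0.74, SE 0.311, edgeR adjusted p = 0.225). Of the 12 genes of class I antigen processing 5 had estimates above 0. EdgeR called none, with 5 lower at an unadjusted p under 0.05, against 10.8% of all genes. Limma on FPKM called Pdia3 lower, against 1.1% of all genes, and DESeq2 called Pdia3, Canx and Calr lower, against 3.97%. Without fed library 3, which held the lowest fed value of Tap1, edgeR called Tap1 alone of the 12, as lower (edgeR adjusted p = 0.0325). The share of all genes called lower in that fit was 3.26%. Without fed library 1 Tap1 did not pass (edgeR adjusted p = 0.359). B2m, the light chain of class I molecules, had 1414, 1023 and 749 CPM in fed and 1006, 1107 and 1176 CPM in fasted libraries (log2 fold change 0.05, edgeR adjusted p = 0.941). Pdia3 and Canx, chaperones of the endoplasmic reticulum that serve many glycoproteins, had log2 fold changes of -1.15 and -0.76 without overlap (edgeR adjusted p = 0.0604 and 0.0705).

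Among Psmb8, Psmb9, Psmb10 and the thymus gene Psmb11, only Psmb8 held the gamma-activated string TTCNNNGAA, bound by STAT dimers, in its window. None of these genes held the core of the interferon-stimulated response element. TTCNNNGAA occurred in 7.02% of all windows and 2 members, the other being Psmg1. The stretch around the Psmb8 match is shown because interferon gamma acts on such elements; it lies at chr17:34198088-34198116 on the plus strand (RefSeq, GRCm38.p6), with the match from -97 to -89 in capitals.
Psmb8: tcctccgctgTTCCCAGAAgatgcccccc
The Psmb8 exons overlap the opposite-strand gene Gm20496, so the Psmb8 counts too may depend on the strand setting, which was not tested.

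Proteins that bind or help to build the proteasome were described with the same test. Zfand5, a zinc finger protein that binds the 26S complex and raises its activity, was called higher in edgeR. It was the single edgeR call among the 10 listed partners in the table, against 1.41% of all genes called higher. DESeq2 called Zfand5 and AI314180 higher, against 4.43%, and limma on FPKM called 0. Zfand5 had 35.1, 27.1 and 22.3 CPM in fed and 51.7, 64.8 and 55.0 CPM in fasted libraries, a rise without overlap (log2 fold change 1.02, SE 0.192, edgeR adjusted p = 0.0436). Over the alternatives the adjusted p of Zfand5 ran from 0.000694 to 0.176, and it missed the threshold on the FPKM scale, with the replicate number as a block, without fed library 2 and without each of the fasted libraries. Adrm1, a ubiquitin receptor of the cap, had 66.9, 51.7 and 52.6 CPM in fed and 72.8, 75.6 and 83.9 CPM in fasted libraries, again without overlap (log2 fold change 0.44, SE 0.156, edgeR adjusted p = 0.163). Pomp, which matures the core, and Usp14, a deubiquitinase bound to the cap, overlapped between the groups, with log2 fold changes of 0.07 and 0.09.

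The factors that set proteasome gene transcription held no call among 11 tested genes in edgeR. At an unadjusted p under 0.05 in edgeR 4 were higher, against 11.0% of all genes. DESeq2 called Ddi2 higher, against 4.43%. Of the 11 genes 9 had an estimate above 0, with a median log2 difference of 0.36. Nfe2l1 had 83.7, 92.8 and 95.2 CPM in fed and 91.0, 79.3 and 112 CPM in fasted libraries, with fasted values on both sides of the fed range (log2 fold change 0.05, SE 0.169, edgeR adjusted p = 0.880). Ddi2, the protease that cleaves Nfe2l1 into its active form, had 175, 158 and 159 CPM in fed and 217, 315 and 340 CPM in fasted libraries. Its groups did not overlap, and it did not pass (log2 fold change 0.83, SE 0.207, edgeR adjusted p = 0.0854). Ngly1, which removes sugars from Nfe2l1, had 40.1, 27.3 and 30.0 CPM in fed and 47.5, 45.8 and 52.4 CPM in fasted libraries (log2 fold change 0.58, SE 0.171, edgeR adjusted p = 0.114). Nfe2l2, a related factor, overlapped, with a log2 fold change of 0.41 (edgeR adjusted p = 0.361).

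Ubiquitin genes and the factors that carry tagged proteins to the proteasome held no call among 14 tested genes in edgeR. At an unadjusted p under 0.05 in edgeR 2 were higher and 1 lower, against 11.0% and 10.8% of all genes. DESeq2 called Ufd1l and Nploc4 higher, against 4.43%. The list had 10 estimates above 0 and a median log2 difference of 0.17. Ufd1l and Nploc4 form the adaptor with which the ATPase Vcp extracts tagged proteins. Ufd1l had 31.2, 28.0 and 33.7 CPM in fed and 45.3, 44.1 and 46.7 CPM in fasted libraries (log2 fold change 0.55, SE 0.123, edgeR adjusted p = 0.0664). Nploc4 had 66.7, 62.7 and 55.8 CPM in fed and 82.2, 90.3 and 101 CPM in fasted libraries (log2 fold change 0.56, SE 0.147, edgeR adjusted p = 0.0943). Both had groups that did not overlap, and neither passed in edgeR.

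The annotation limits some members. Exons of 11 of the 48 members overlap a gene on the opposite strand in GENCODE M21, among them Psma4, Psma5, Psmb7, Psmc3, Psmd1, Psmd3, Psmd13 and Psme1 beside those named above. Exons of 3 overlap a gene on the same strand, namely Psmb5, Psmd1 and Psmg3, and annotated pseudogenes exist for Psmb5, Psmb6 and Psmb7, so reads of near copies may be shared. For 11 members the locus in the deposited table spans more than 1.5 times the annotated gene, Psmb8, Psmb9, Psmb10, Psmd4 and Psmd9 among them, and how this bears on their counts was not tested.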

How the data were processed

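Liver RNA of 3 fed and 3 fasted mouse libraries was sequenced after ribosomal RNA removal with a stranded total RNA kit, per the labels' protocols. CASAVA 1.8, TopHat2 and hg19 appear in the submitters' processing notes; the last is a human build, while the table carries mouse Ensembl identifiers, of which 21839 occur in GENCODE M21. How reads were counted, and whether by strand, is not stated in those notes or the labels. The authors deposited, per the file headers, an FPKM and an estimated count for each gene and library in 22564 lines, 1 of them emptied for this work. FPKM are per transcript length and mapped reads as the authors deposited them.

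The estimated counts deposited by the authors were whole multiples, within 0.02, of a step of 0.840 to 1.18 for 90.5% to 91.1% of values in each library, so they were divided by the step, rounded to whole numbers and summed by symbol (162 lines share one). Fasted and fed libraries were compared with edgeR 4.0.16 in R 4.3.3 (glmQLFit and glmQLFTest, TMM factors, filterByExpr with a minimum count of 10, no covariate, two-sided, Benjamini-Hochberg adjustment, threshold 0.05). CPM are scaled to the TMM-adjusted total, and the standard error is the log2 fold change divided by the square root of F. The common biological coefficient of variation was 27.9%. Alternatives used DESeq2 1.42.0, limma 3.58.1 on log2(FPKM + 1) with a filter of 1 FPKM, other scalings, filters and left-out libraries.

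The members and lists were chosen with earlier results of these data known. Values are given for the catalytic and inducible subunits, called members, the 3 lowest p and the highest and lowest FPKM of each class; for other lists, the called genes or else the 2 lowest p, and Nfe2l1, Nfe2l2, Pomp, Adrm1, Usp14, B2m, Tap1 and Irf1; 1 other gene of this rule is not reported here. The precision is limited by the counting error of the counts given and by the spread between the 3 libraries of each group.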

Additional observations from a re-analysis of the deposited data

How the results depend on the processing

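The median log2 difference of the members stayed above 0 under every alternative, from 0.12 to 0.29; the medians of single libraries had a pooled SD of 0.135 within groups. With DESeq2, 1056 genes and 5 members higher were called. Limma on FPKM with a pseudocount of 0.1 gave 175 genes and 0 members, and limma without a filter 93 genes and 0 members. With the replicate number as a block, 29 genes and 0 members were called, where Psmd9 had an edgeR adjusted p of 0.0683. The correlations of the deviations of same-numbered libraries were -0.0739, 0.183 and -0.126. Those of differently numbered libraries ran from -0.255 to 0.293. With 3 libraries per group these values cannot decide whether the numbers pair the libraries. Leaving out 1 library gave 3 to 754 genes, 0 to 1 members higher and 0 to 3 lower. Leaving out Alb, chosen after seeing the data, changed no member's call. Among 828 log2 fold changes of single members 36 changed sign, all in 11 members whose adjusted p was at least 0.751. On FPKM with a pseudocount of 1 (with and without a filter) and of 0.1, Psma1 had -0.00924 and -0.00914, Psmc2 -0.00304 and -0.00296, Psmd2 -0.000361 and -0.000205, Psmg3 -0.0708 and -0.0746, and Psmg4 -0.0220 and -0.0227. Upper-quartile factors gave Psmg3 -0.0177 and Psmg4 -0.0166, and no filter gave Psme3 0.00124. Leaving out 1 library at a time, the sign changed within these ranges: Psma1 from -0.0311 to 0.179, Psma3 from -0.0293 to 0.202, Psma4 from -0.109 to 0.000703, Psmc2 from -0.00679 to 0.155, Psmd2 from -0.0110 to 0.177, Psmd14 from -0.172 to 0.149, Psmg1 from -0.228 to 0.0202, Psmg3 from -0.116 to 0.265, Psmg4 from -0.223 to 0.311, Psme1 from -0.170 to 0.323 and Psme3 from -0.114 to 0.0862; the cause was not tested. At 32 to 84 counts a library Psmg4 is the tested member with the lowest counts, and Psma8, with at most 7 counts in a library, could not be tested.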
